A study of Mus musculus with 96 samples.

Results

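The 38 genes described here are expressed mainly by mature oligodendrocytes, and they were chosen as the rows of the deposited tables whose gene name is one of 38 named oligodendrocyte and myelin genes, of 48795 genes in all. All 38 were found, and all 38 passed the filter on low counts in both tissues. The study sequenced RNA from striatum and cerebral cortex of 48 mice aged 6 months on a C57BL/6 background. It crossed Q140, a knock-in allele of the huntingtin gene with an expanded CAG repeat that models Huntington's disease and was carried on 1 allele (heterozygous, per the labels), with loss of Msh6, a DNA mismatch repair gene. The 6 genotypes were 3 without Q140 (wild type, Msh6+/- and Msh6-/-) and their 3 counterparts with it (Q140, Q140 X Msh6+/- and Q140 X Msh6-/-), with 8 mice each (4 males and 4 females) and 1 library per tissue and mouse. Wild type and Q140 carry intact Msh6 and are called Msh6+/+ below. The labels do not say which cells lose Msh6 or whether mice were littermates. In bulk tissue, fewer cells of a type and less RNA per cell cannot be told apart.

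Oligodendrocytes wrap axons in myelin, a stack of lipid-rich membrane held together by proteins such as Mbp, and the wrapping lets nerve impulses travel fast. The transcription factors Olig2 and Sox10 define the lineage, and Myrf switches on the genes of the myelinating cell. The striatum is crossed by myelinated fibre bundles and the cortical grey matter holds less myelin, and the striatum is the region most affected in Huntington's disease.

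Libraries held 12403528 to 21108017 counts in striatum and 16725695 to 22886441 in cortex. Levels are given as CPM, counts per 1000000 counts of the library after scaling between libraries, by the lowest, the median and the highest of the 8 mice. Msh6 itself, the targeted gene, went with the labels: in striatum it lay from 14.6 to 18.4 CPM in wild type, from 11.9 to 15.6 in Msh6+/- and from 6.92 to 11.1 in Msh6-/- mice. All 12 listed markers of striatal projection neurons were higher in wild-type striatum than in cortex and all 8 listed markers of cortical glutamatergic neurons lower. Striatal libraries that stood apart were those of Q140 X Msh6+/- mouse 17-1 and Q140 X Msh6-/- mice 28-1 and 21-3, with the mean of the cortical neuron markers 1.27, 1.32 and 1.19 log2 units above wild type. In the summed CPM of these markers they did not stand apart. The highest sum was 201 in Q140 X Msh6+/-, 201 in Q140 X Msh6-/- and 203 in wild-type striatum. They are called the 3 libraries high in cortical neuron genes below, a name that rests on the log2 mean alone. Mouse 21-3 also stood 6.399 log2 units above wild type in the mean of the choroid plexus markers.

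The members were expressed in both tissues and most were far higher in striatum. Per length, the FPKM of the authors' table, which divides by gene length and library total, ran in wild-type striatum from 1.74 ± 0.255 for Enpp6 to 317 ± 30.96 for Mbp (mean ± SD, n = 8), and in cortex from 0.434 ± 0.0915 to 105 ± 7.34 for the same genes. Mobp followed Mbp in striatum at 155 ± 18.6 FPKM, and then Cnp at 85.5 ± 9.37, Plekhb1 at 78.9 ± 5.71 and Mal at 78.3 ± 9.29; the means of these last 3 differ by less than 1 SD of Cnp. Of the transcription factors, Olig1 stood at 34.5 ± 3.26 FPKM, Sox10 at 15.9 ± 1.07 and Nkx6-2 at 5.04 ± 0.796. Striatum exceeded cortex for 37 of the 38 members, against 35.9% of all genes tested that were higher and 36.5% that were lower. The members' median log2 difference was 1.31, against 0.0071 over all genes. The largest of these were Anln, at 2.14 ± 0.091 (log2 ± SE), and Enpp6, at 2.00 ± 0.12, and the smallest Sirt2, at 0.23 ± 0.031, and Olig2, at 0.33 ± 0.085. Enpp2, which makes the lipid mediator lysophosphatidic acid and is also a choroid plexus gene, was the exception at -0.34 ± 0.20 (adjusted p = 0.112). With the animal as a block its difference was -0.34 ± 0.15 and passed the test as lower in striatum (edgeR, adjusted p = 0.0338).

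In striatum, many of the members were called lower with Q140 in Msh6+/- mice, in Msh6-/- mice and in the mean effect. With intact Msh6, 6 members fell (15.8%) and 3 rose (7.89%), against 14.2% of all genes that fell and 15.5% that rose. The share of members that fell was thus near that of all genes. At an unadjusted p under 0.05 in either direction were 12 members (31.6%) and 39.0% of all genes. In Msh6+/- mice 17 fell and 0 rose (all genes, 14.9% and 16.3%), with 21 members at an unadjusted p under 0.05 in either direction (40.1% of all genes). In Msh6-/- mice 20 fell and 2 rose (all genes, 15.2% and 17.8%), with 23 members at the unadjusted p (41.5% of all genes). Over the 3 Msh6 genotypes together, the mean Q140 effect was a fall for 18 members and a rise for 4 (all genes, 23.6% and 29.1%). The 18 that fell are 47.4% of the members. These counts are from edgeR's quasi-likelihood test with Benjamini-Hochberg adjustment over all genes tested and an adjusted p under 0.05. The members' median log2 fold change was 0.037 in Msh6+/+, -0.16 in Msh6+/- and -0.20 in Msh6-/- mice, where the medians of all genes were 0.014, 0.014 and 0.016. Mobp, Mal, Tspan2, Ugt8a, Fa2h and Car2 fell at all 3 Msh6 doses, which share no mice, and 14 members passed at none. For neither count is the share of all genes given here, so they are not read as a result about the members. On the authors' FPKM scale, which divides by the whole library and was tested with limma, the split of calls shifted toward rises: 2 fell and 7 rose in Msh6+/+, 10 and 1 in Msh6+/-, 11 and 2 in Msh6-/-, and 11 and 6 in the mean. Of the 6 that fell with intact Msh6 by edgeR, Mal, Tspan2, Ugt8a and Fa2h did not pass on that scale, and Mobp and Car2 did. The members' median was 0.11, -0.098 and -0.12 at the 3 doses on that scale and went from -0.082 to -0.012 in the mean effect. The median of all genes moved with it, from 0.015 to 0.078 in the mean effect, and was 0.082, 0.071 and 0.083 at the 3 doses on the FPKM scale. The shares of all genes called on that scale are not given here, so its counts of calls are not read as a result about the members.

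**Figure D1:**
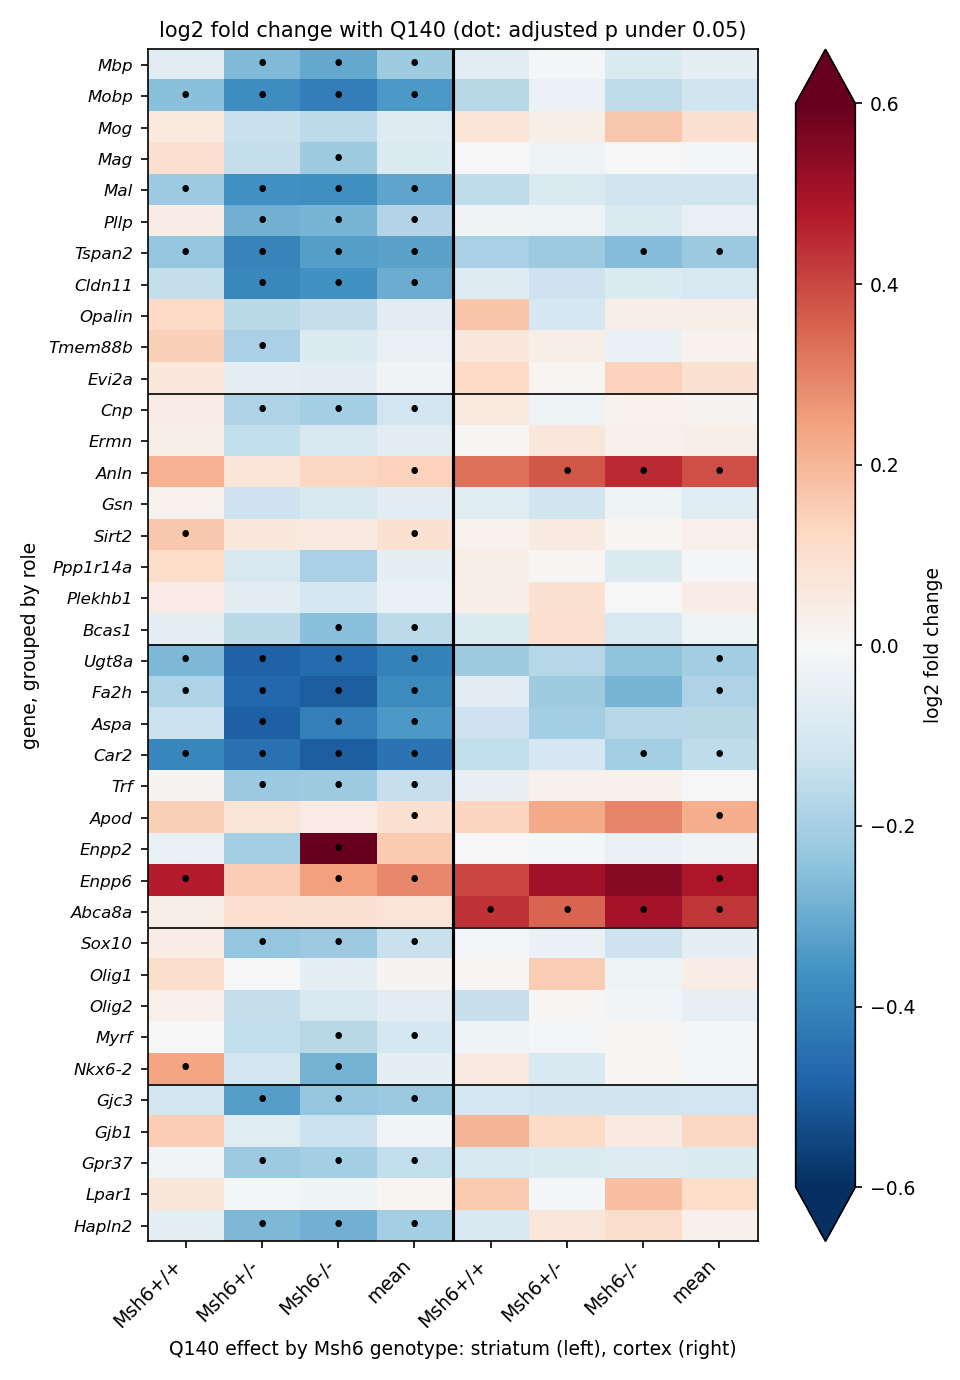
Log2 fold change with Q140 of each of the 38 genes (rows, grouped by role) in Msh6+/+, Msh6+/- and Msh6-/- mice and their mean, striatum left and cortex right. Colour is the log2 fold change, clipped at 0.6 in either direction (Enpp2 in Msh6-/- striatum exceeds it), and dots mark an adjusted p under 0.05: 6, 17 and 20 members fell in striatum at the 3 Msh6 doses, and at most 2 in cortex at the same doses.

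Of the 11 genes for myelin membrane and surface proteins, 3 fell with Q140 in Msh6+/+ striatum, 7 in Msh6+/- and 7 in Msh6-/-, and none rose at any dose. At the same doses 14.2%, 14.9% and 15.2% of all genes fell and 15.5%, 16.3% and 17.8% rose. Mobp lay from 883 to 1212 (median 1026) CPM in wild-type striatum and from 693 to 1016 (median 868) in Q140. In the Msh6+/- pair it lay from 894 to 1225 (median 1103) without Q140 and from 703 to 902 (median 843) with it, and in the Msh6-/- pair from 958 to 1296 (median 1155) and from 786 to 968 (median 854). Mobp (chromosome 9, 120149707 to 120181484, plus strand, GRCm38) encodes a basic protein of compact myelin. All 8 Q140 mice lay below the mean of their controls at each Msh6 dose, though the ranges overlapped in each pair. With Q140 it differed on the log2 scale by -0.25 ± 0.067 in Msh6+/+ (adjusted p = 0.00265), -0.37 ± 0.067 in Msh6+/- (adjusted p = 1.46e-05) and -0.41 ± 0.067 in Msh6-/- (adjusted p = 1.73e-06). Mal (chromosome 2, 127633226 to 127656695, minus strand), a proteolipid of membrane sorting, was measured at 186 to 251 (median 224) CPM in wild type and 166 to 217 (median 188) in Q140. In Msh6+/- mice it was measured at 212 to 255 (median 244) CPM and at 153 to 205 (median 184) with Q140, and in Msh6-/- mice at 208 to 265 (median 239.8) and 176 to 194 (median 187). The ranges with and without Q140 did not overlap in Msh6+/- and Msh6-/- mice. Its log2 fold change was -0.22 ± 0.061 in Msh6+/+ (adjusted p = 0.00476), -0.36 ± 0.061 in Msh6+/- (adjusted p = 5.09e-06) and -0.37 ± 0.061 in Msh6-/- (adjusted p = 3.85e-06).

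Mbp, on chromosome 18, encodes the protein that seals the cytoplasmic faces of the myelin membrane. Mbp lay from 2395 to 3173 (median 2682) CPM in wild-type striatum and from 2034 to 3027 (median 2671) in Q140. In the Msh6+/- pair it lay from 2474 to 3293 (median 3000.3) without Q140 and from 2074 to 2661 (median 2473) with it, and in the Msh6-/- pair from 2844 to 3666 (median 3193) and from 2411 to 2708 (median 2558). With intact Msh6, 2 of 8 Q140 mice lay below the lowest wild-type mouse, while all 8 Q140 X Msh6-/- mice lay below the lowest Msh6-/- mouse. The Q140 effect, as a log2 fold change, was -0.064 ± 0.064 in Msh6+/+ (adjusted p = 0.499), -0.27 ± 0.064 in Msh6+/- (adjusted p = 0.000901) and -0.31 ± 0.064 in Msh6-/- (adjusted p = 0.000127). Tspan2, a tetraspanin, fell by a mean of 0.32 and Cldn11, which forms the tight junctions between myelin layers, by 0.30 on the log2 scale (adjusted p = 5.88e-09 and 1.61e-08). Pllp, a myelin proteolipid, had a mean effect of -0.17 ± 0.054 (adjusted p = 0.00547). The surface proteins Mog, Mag and Opalin did not pass in the mean effect. Mog (chromosome 17, 37010743 to 37023398, minus strand), which sits on the outermost layer, was measured at 46.8 to 66.04 (median 54.5) CPM in wild type and 42.8 to 67.9 (median 58.9) in Q140. It was measured at 53.8 to 66.8 (median 62.5) CPM in Msh6+/-, 43.3 to 64.5 (median 54.9) in Q140 X Msh6+/-, 44.04 to 75.3 (median 63.9) in Msh6-/- and 40.1 to 63.8 (median 57.5) in Q140 X Msh6-/- mice. All of these Mog ranges overlapped, and its mean effect was -0.078 ± 0.05 (adjusted p = 0.191). Mag, an adhesion protein facing the axon, fell in Msh6-/- mice alone among the 3 tests, by 0.21 (adjusted p = 0.0187), and Tmem88b in Msh6+/- mice, by 0.19 (adjusted p = 0.0459). Evi2a and Opalin had mean effects of -0.02 ± 0.039 and -0.063 ± 0.083, which did not pass.

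**Figure D2:**
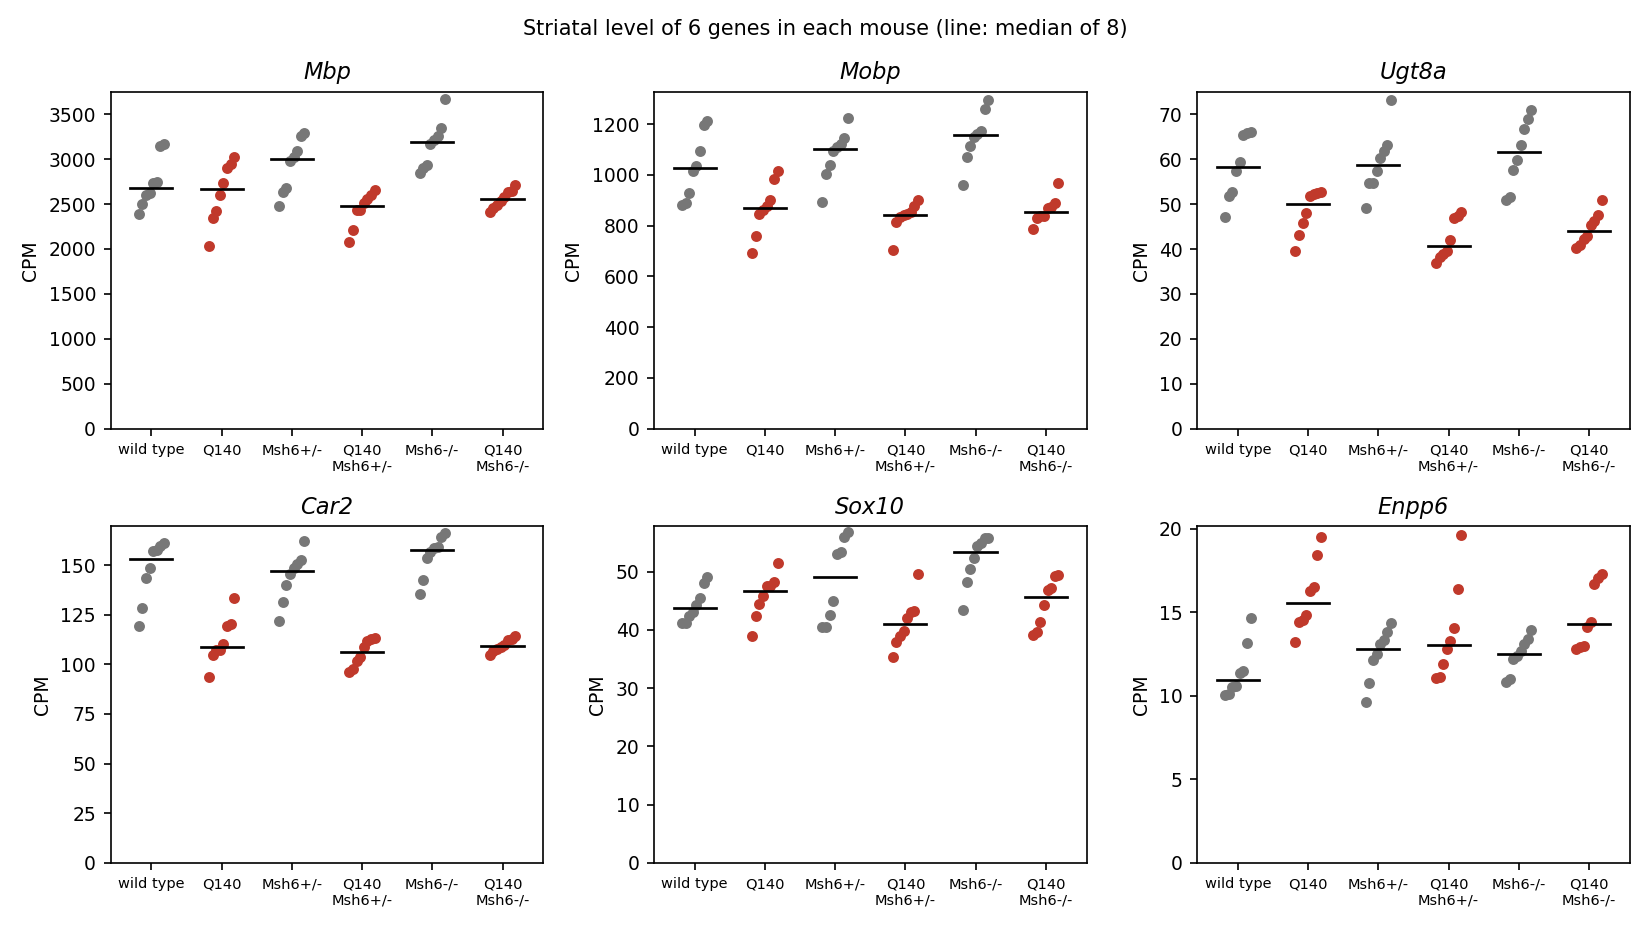
CPM (vertical axes, from 0) of Mbp, Mobp, Ugt8a, Car2, Sox10 and Enpp6 in the striatum of each of 48 mice by genotype, mice without Q140 in grey and with Q140 in red, sorted by level within a group, lines at the median of 8. Car2 is lower with Q140 at each Msh6 dose, Mbp is visibly lower in the Msh6-/- pair, and Enpp6 is higher in Q140 than in wild type.

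Among the 8 cytoplasmic and cytoskeletal genes 2 fell (Cnp and Bcas1) and 2 rose (Anln and Sirt2) in the mean effect, shares near those of all genes (23.6% and 29.1%). Cnp (chromosome 11, 100574904 to 100591729, plus strand), whose enzyme keeps cytoplasmic channels open within myelin, was measured at 269 to 356 (median 325) CPM in wild type and 274 to 385 (median 334) in Q140. It was measured in Msh6+/- mice at 285 to 393 (median 369) CPM and at 279 to 338 (median 307) with Q140, and in Msh6-/- mice at 288 to 429.7 (median 364) and 252 to 330.5 (median 322). In both pairs with reduced Msh6 all 8 Q140 mice lay below the control mean, and with intact Msh6 4 of 8 did; the ranges overlapped in each pair. With Q140 it differed on the log2 scale by 0.047 ± 0.065 in Msh6+/+ (adjusted p = 0.647), -0.18 ± 0.065 in Msh6+/- (adjusted p = 0.0259) and -0.20 ± 0.065 in Msh6-/- (adjusted p = 0.0126). Bcas1 (chromosome 2, 170346991 to 170427845, minus strand), a marker of cells that have begun to myelinate, lay from 153 to 226 (median 188) CPM in wild type and from 156 to 209 (median 188) in Q140. It lay from 161 to 227 (median 196) CPM in Msh6+/-, from 149.8 to 189.8 (median 174) in Q140 X Msh6+/-, from 172 to 232 (median 209.9) in Msh6-/- and from 144 to 191 (median 174) in Q140 X Msh6-/- mice. These Bcas1 ranges overlapped in each pair, and its mean effect was -0.16 ± 0.041 (adjusted p = 0.00139).

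Sirt2 (chromosome 7, 28766735 to 28788661, plus strand) encodes a tubulin deacetylase that is abundant in myelin and also made by neurons. It was measured at 110.4 to 125 (median 122) CPM in wild type and 124 to 142 (median 135) in Q140, where 7 of 8 Q140 mice lay above the highest wild-type mouse. In Msh6+/- mice it was measured at 119 to 132 (median 126) CPM and at 121 to 143 (median 129.6) with Q140, and in Msh6-/- mice at 120.1 to 138 (median 127) and 124 to 139 (median 134). Its log2 fold change was 0.16 ± 0.032 in Msh6+/+ (adjusted p = 7.39e-05), 0.065 ± 0.032 in Msh6+/- (adjusted p = 0.117) and 0.053 ± 0.032 in Msh6-/- (adjusted p = 0.21), so the call was made with intact Msh6 and in the mean effect, at 0.093 ± 0.018 (adjusted p = 2.77e-05). Anln, a scaffold protein of septin filaments in myelin, rose in the mean effect by 0.14 ± 0.048 (adjusted p = 0.0137). Ermn, Gsn, Ppp1r14a and Plekhb1 had mean effects of -0.07 ± 0.039, -0.066 ± 0.039, -0.06 ± 0.056 and -0.04 ± 0.03, none of which passed.

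The 9 lipid, enzyme and transport genes held the largest falls, and also rises: 5 fell and 2 rose in the mean effect (all genes, 23.6% and 29.1%). Car2 (chromosome 3, 14886273 to 14900770, plus strand), the carbonic anhydrase of oligodendrocytes, was measured at 119 to 161 (median 153) CPM in wild type and 93.6 to 134 (median 109) in Q140. It was measured in Msh6+/- mice at 122 to 162 (median 147) CPM and at 96.3 to 113 (median 106) with Q140, and in Msh6-/- mice at 135 to 166 (median 157) and 105 to 114 (median 109). Car2 ranges with and without Q140 were apart in both pairs with reduced Msh6, and with intact Msh6 5 of 8 Q140 mice lay below the lowest wild-type mouse. The Q140 effect, as a log2 fold change, was -0.39 ± 0.058 in Msh6+/+ (adjusted p = 3.36e-07), -0.45 ± 0.058 in Msh6+/- (adjusted p = 1.75e-08) and -0.49 ± 0.058 in Msh6-/- (adjusted p = 9.66e-10).

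Ugt8a and Fa2h make the galactolipids of myelin: Ugt8a joins galactose to ceramide, and Fa2h hydroxylates the fatty acids of these lipids. Ugt8a (chromosome 3, 125865271 to 125938619, minus strand) lay from 47.2 to 66.2 (median 58.4) CPM in wild type, from 39.6 to 52.7 (median 50.02) in Q140, from 49.2 to 73.2 (median 58.8) in Msh6+/- and from 36.9 to 48.4 (median 40.7) in Q140 X Msh6+/- mice. It lay from 50.98 to 70.9 (median 61.5) CPM in Msh6-/- and from 40.2 to 50.96 (median 44.1) in Q140 X Msh6-/- mice. Fa2h (chromosome 8, 111345135 to 111393824, minus strand) lay from 40.03 to 50.8 (median 44.6) CPM in wild type, from 33.9 to 44.6 (median 38.7) in Q140, from 41.4 to 57.1 (median 48.8) in Msh6+/-, from 29.9 to 38.4 (median 35.2) in Q140 X Msh6+/-, from 45.1 to 57.3 (median 52.3) in Msh6-/- and from 34.7 to 40.5 (median 37.1) in Q140 X Msh6-/- mice. For both genes the Q140 range lay wholly below the control range in Msh6+/- and in Msh6-/- mice. The log2 fold change of Ugt8a was -0.27 ± 0.076 in Msh6+/+ (adjusted p = 0.00513), -0.49 ± 0.077 in Msh6+/- (adjusted p = 1.55e-06) and -0.46 ± 0.077 in Msh6-/- (adjusted p = 3.36e-06). That of Fa2h was -0.19 ± 0.058 in Msh6+/+ (adjusted p = 0.0112), -0.47 ± 0.059 in Msh6+/- (adjusted p = 5.98e-09) and -0.49 ± 0.058 in Msh6-/- (adjusted p = 1.39e-09). Aspa (chromosome 11, 73304992 to 73329596, minus strand), which splits N-acetylaspartate, was measured at 17.1 to 26.2 (median 20.4) CPM in wild type and 15.4 to 22.7 (median 19.01) in Q140. It was measured at 20.1 to 26.05 (median 23.2) CPM in Msh6+/-, 13.4 to 19.3 (median 17.1) in Q140 X Msh6+/-, 19.1 to 26.7 (median 21.8) in Msh6-/- and 15.4 to 20.1 (median 16.4) in Q140 X Msh6-/- mice. With Q140 it differed on the log2 scale by -0.13 ± 0.079 in Msh6+/+ (adjusted p = 0.224), -0.49 ± 0.08 in Msh6+/- (adjusted p = 2.84e-06) and -0.41 ± 0.08 in Msh6-/- (adjusted p = 4.82e-05). Trf, the iron carrier transferrin, fell by 0.14 in the mean effect (adjusted p = 0.00504).

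Enpp6, a choline phosphodiesterase made early in oligodendrocyte maturation, rose, and Apod, a lipocalin, passed in the mean effect but not under every setting. Enpp6 (chromosome 8, 46986887 to 47096762, plus strand) lay from 10.02 to 14.7 (median 10.9) CPM in wild type and from 13.2 to 19.5 (median 15.5) in Q140, where 5 of 8 mice lay above the highest wild-type mouse. It lay from 9.62 to 14.4 (median 12.8) CPM in Msh6+/-, from 11.1 to 19.6 (median 13.01) in Q140 X Msh6+/-, from 10.8 to 13.9 (median 12.5) in Msh6-/- and from 12.8 to 17.3 (median 14.3) in Q140 X Msh6-/- mice. Its log2 fold change was 0.47 ± 0.094 in Msh6+/+ (adjusted p = 8.25e-05), 0.15 ± 0.095 in Msh6+/- (adjusted p = 0.258) and 0.24 ± 0.094 in Msh6-/- (adjusted p = 0.04). The Msh6-/- call was lost without the count filter (edgeR, adjusted p = 0.0575) and with the number before the hyphen of the animal number as a covariate (0.0595). Apod had a mean effect of 0.09 ± 0.039 (adjusted p = 0.0454) and passed at none of the 3 doses. Its mean call was lost with relative log scaling (edgeR, adjusted p = 0.0725), without the count filter (0.0648), with DESeq2 (0.068), with the number before the hyphen of the animal number as a covariate (0.0887) and without mouse 21-3 (0.0573). Abca8a, a lipid transporter, had a mean effect of 0.076 ± 0.038 (adjusted p = 0.0879). Enpp2 was called higher in Msh6-/- mice at 0.72 ± 0.26 (adjusted p = 0.028), and this call came with 1 library. Mouse 21-3 held 1366 CPM, while the other 7 Q140 X Msh6-/- mice lay from 149 to 189, and the summed level of the 10 choroid plexus markers was 2867 CPM in the same library and at most 54.1 in the striatum of any mouse of the other 5 genotypes. Without mouse 21-3 the Enpp2 value was -0.15 ± 0.067 (adjusted p = 0.0725), and its mean effect was a fall, -0.14 ± 0.038 (adjusted p = 0.00216).

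The 5 transcription factors included 2 that fell in the mean effect (Sox10 and Myrf) and none that rose (all genes, 23.6% and 29.1%). Sox10 (chromosome 15, 79154908 to 79165240, minus strand) was measured at 41.2 to 49.1 (median 43.7) CPM in wild type and 38.9 to 51.4 (median 46.7) in Q140. In Msh6+/- mice it was measured at 40.5 to 56.7 (median 49.04) CPM and at 35.4 to 49.5 (median 40.9) with Q140, and in Msh6-/- mice at 43.4 to 55.8 (median 53.4) and 39.2 to 49.5 (median 45.6). Its Q140 and control ranges overlapped in each pair, and its log2 fold change was 0.047 ± 0.067 in Msh6+/+ (adjusted p = 0.652), -0.23 ± 0.067 in Msh6+/- (adjusted p = 0.00587) and -0.22 ± 0.066 in Msh6-/- (adjusted p = 0.00835). Myrf (chromosome 19, 10208272 to 10240748, minus strand) lay from 77.6 to 105 (median 90.5) CPM in wild type, from 76.4 to 107 (median 90.7) in Q140, from 85.96 to 107 (median 98.6) in Msh6+/- and from 79.8 to 94.2 (median 87.3) in Q140 X Msh6+/- mice. It lay from 91.3 to 114 (median 98.8) CPM in Msh6-/- and from 83.1 to 97.3 (median 88.7) in Q140 X Msh6-/- mice, and its mean effect was a fall, -0.10 ± 0.034 (adjusted p = 0.00825). Nkx6-2 (chromosome 7, 139579376 to 139582797, minus strand), a homeobox factor of myelinating cells, was called higher in Msh6+/+ and lower in Msh6-/- mice. It lay from 7.82 to 12.2 (median 9.4) CPM in wild type, from 9.09 to 13.6 (median 11.95) in Q140, from 9.901 to 15.7 (median 11.98) in Msh6-/- and from 8.903 to 12.2 (median 10.01) in Q140 X Msh6-/- mice. It lay from 8.22 to 13.5 (median 10.6) CPM in Msh6+/- and from 9.23 to 11.6 (median 9.96) in Q140 X Msh6+/- mice. The Q140 effect, as a log2 fold change, was 0.24 ± 0.094 in Msh6+/+ (adjusted p = 0.0492), -0.11 ± 0.094 in Msh6+/- (adjusted p = 0.411) and -0.28 ± 0.093 in Msh6-/- (adjusted p = 0.0149). The Msh6+/+ call was lost with relative log scaling (edgeR, adjusted p = 0.0599), without the count filter (0.0801), with DESeq2 (0.0533) and without the 3 libraries high in cortical neuron genes (0.0559).

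Olig2 (chromosome 16, 91225457 to 91228677, plus strand) and Olig1 (chromosome 16, 91269772 to 91271933, plus strand), which also mark precursor cells, passed at no dose. Olig2 was measured at 16.5 to 23.8 (median 21.3) CPM in wild type, 17.6 to 23.9 (median 21.9) in Q140, 17.4 to 26.5 (median 21.3) in Msh6+/- and 16.7 to 23.02 (median 19.3) in Q140 X Msh6+/- mice. It was measured at 17.5 to 25.4 (median 21.6) CPM in Msh6-/- and 18.9 to 23.5 (median 19.4) in Q140 X Msh6-/- mice, and its mean effect was -0.07 ± 0.046 (adjusted p = 0.2). Olig1 was measured at 62.9 to 87.1 (median 78.3) CPM in wild type, 73.8 to 93.2 (median 83.2) in Q140, 68.2 to 92.2 (median 80.8) in Msh6+/-, 72.7 to 88.8 (median 79.6) in Q140 X Msh6+/-, 74.4 to 95.5 (median 83.7) in Msh6-/- and 73.5 to 84.7 (median 82.7) in Q140 X Msh6-/- mice. The mean effect of Olig1 was 0.015 ± 0.033 (adjusted p = 0.728), and the ranges of both genes overlapped in each pair.

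Of the 5 gap junction, receptor and nodal matrix genes, Gjc3, Gpr37 and Hapln2 fell in the mean effect and none rose (all genes, 23.6% and 29.1%). Gjc3 (chromosome 5, 137953461 to 137963098, minus strand), a connexin of oligodendrocytes, lay from 59.9 to 71.3 (median 64.8) CPM in wild type, from 49.8 to 71.04 (median 61.3) in Q140, from 63.8 to 79.3 (median 73.2) in Msh6+/- and from 51.2 to 63.2 (median 56.1) in Q140 X Msh6+/- mice, where the last 2 ranges did not overlap. It lay from 64.8 to 80.9 (median 69.01) CPM in Msh6-/- and from 56.2 to 67.3 (median 61.5) in Q140 X Msh6-/- mice, and its mean effect was -0.22 ± 0.032 (adjusted p = 4.41e-08). Hapln2 (chromosome 3, 88021750 to 88027583, minus strand), a link protein of the matrix at nodes of Ranvier, lay from 31.98 to 46.4 (median 34.9) CPM in wild type, from 31.3 to 40.6 (median 35.7) in Q140, from 32.8 to 48.1 (median 41.1) in Msh6+/- and from 30.1 to 36.5 (median 33.8) in Q140 X Msh6+/- mice. In the Msh6-/- pair it lay from 37.6 to 50.1 (median 44.9) CPM and from 29.2 to 42.6 (median 36.5) with Q140, and its mean effect was -0.21 ± 0.047 (adjusted p = 0.000226). Gjb1 (chromosome X, 101376378 to 101385629, plus strand), the connexin that also serves Schwann cells, was measured at 13.6 to 16.8 (median 15.6) CPM in wild type, 13.8 to 20.4 (median 16.8) in Q140, 12.01 to 19.2 (median 17.2) in Msh6+/- and 13.4 to 17.3 (median 15.3) in Q140 X Msh6+/- mice. It was measured at 13.9 to 19.97 (median 17.6) CPM in Msh6-/- and 13.8 to 17.4 (median 15.8) in Q140 X Msh6-/- mice, with overlap in each pair and a mean effect of -0.017 ± 0.047 (adjusted p = 0.796). Gpr37, an orphan receptor of oligodendrocytes, fell by 0.15 in the mean effect (adjusted p = 0.00236), and Lpar1, a lysophosphatidic acid receptor, had 0.012 ± 0.037 (adjusted p = 0.816).

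Promoters of 2 genes that fell at each Msh6 dose (Mobp and Mal) and of 2 that rose in the mean effect of both tissues (Enpp6 and Apod) are shown because these pairs changed in opposite directions; they were chosen after their values were seen. The runs are RefSeq promoter sequence of build GRCm38.p6, 5′ to 3′ on the gene's strand, up to 250 bases long, and end just before the gene's annotated start: chr9:120149492-120149706 (plus strand), chr2:127656696-127656945 (minus strand), chr8:46986637-46986886 (plus strand) and chr16:31314809-31315058 (minus strand). Capitals mark matches, on either strand, to ACAAAG (a SOX-type motif), CTGGNAC (a MYRF-type motif) or CAGCTG (an E-box); no 2 of these marked matches overlap.
Mobp: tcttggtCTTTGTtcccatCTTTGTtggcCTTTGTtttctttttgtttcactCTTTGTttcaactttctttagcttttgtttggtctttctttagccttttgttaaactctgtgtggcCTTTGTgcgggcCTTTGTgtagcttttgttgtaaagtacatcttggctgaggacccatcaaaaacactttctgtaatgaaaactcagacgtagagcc
Mal: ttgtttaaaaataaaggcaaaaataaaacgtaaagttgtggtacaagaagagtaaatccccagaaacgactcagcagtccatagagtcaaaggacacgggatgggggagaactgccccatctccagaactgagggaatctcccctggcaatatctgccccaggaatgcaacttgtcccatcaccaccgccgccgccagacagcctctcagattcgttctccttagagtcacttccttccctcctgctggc
Enpp6: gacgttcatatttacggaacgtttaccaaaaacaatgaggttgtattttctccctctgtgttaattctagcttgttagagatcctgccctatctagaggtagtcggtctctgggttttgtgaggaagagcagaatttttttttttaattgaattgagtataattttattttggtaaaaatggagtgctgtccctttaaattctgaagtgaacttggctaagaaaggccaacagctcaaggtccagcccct
Apod: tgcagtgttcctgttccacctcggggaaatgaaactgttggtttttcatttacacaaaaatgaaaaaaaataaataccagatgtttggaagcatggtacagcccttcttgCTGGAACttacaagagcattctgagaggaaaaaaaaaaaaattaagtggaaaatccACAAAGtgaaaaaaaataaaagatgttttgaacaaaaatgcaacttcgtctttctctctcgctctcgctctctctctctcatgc
Mobp held 6 SOX-type matches, Apod 1 SOX-type and 1 MYRF-type match, and Mal and Enpp6 none of the 3 motifs. RefSeq promoters were at hand for 28 of the 38 members (39 promoters). Over the 250 bases before the start, the SOX-type motif was in 12 of the 39 (30.8%) and in 16.5% of all 32851 promoters. The MYRF-type motif was in 12 of the 39 (30.8%) and in 16.1% of all, and the E-box in 4 of the 39 (10.3%) and in 13% of all. Promoters of the same gene are counted separately. The SOX-type matches were in Apod, Cnp, Gjb1, Lpar1, Mag, Mobp, Opalin, Plekhb1 and Tspan2. The MYRF-type matches were in Apod, Cnp, Gjb1, Gsn, Hapln2, Lpar1, Mag, Mog, Plekhb1 and Ppp1r14a, and the E-box in Aspa, Gsn and Hapln2. A match is a description of the letters, not evidence of binding.

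Whether the Q140 effect itself depended on Msh6 was tested by interaction terms, and no member passed. The Q140 effect in Msh6+/- minus that in Msh6+/+ striatum had a median of -0.20 over the members, with 0 called by edgeR, DESeq2 (37 members with an adjusted p) and limma and 14 members at an unadjusted p under 0.05 in edgeR (all genes, 0% called and 4.78% at the unadjusted p). That in Msh6-/- minus Msh6+/+ had a median of -0.19, again with 0 called by the 3 tools and 17 members at an unadjusted p under 0.05 (all genes, 0% and 5%). The medians of all genes were -0.00058 and 0.0013. Both terms share the wild-type and Q140 mice. Members also vary together within a mouse, so the counts at the unadjusted p are not of independent genes. The smallest p among members belonged to Fa2h and Aspa for Msh6+/-, at -0.29 ± 0.083 and -0.36 ± 0.11, and to Nkx6-2 and Fa2h for Msh6-/-, at -0.52 ± 0.13 and -0.31 ± 0.082 (lowest adjusted p of any member 0.929 and 0.965). A larger Q140 effect with reduced Msh6 is therefore not shown for any member. In cortex no member passed either interaction term in the 3 tools, and none had an unadjusted p under 0.05 (all genes, 0% and 0% called, 5.17% and 3.93% at the unadjusted p).

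Levels were also compared between Msh6 genotypes. Against wild type, all 38 members had a positive log2 difference in Msh6-/- striatum (median 0.13, from 0.0076 to 0.33) and 34 in Msh6+/- striatum (median 0.093). No member passed either test in edgeR, DESeq2 or limma. In edgeR 18 members had an unadjusted p under 0.05 in Msh6-/- and 5 in Msh6+/- mice (all genes, 0.0971% and 0.0114% called, 6.4% and 5.67% at the unadjusted p). Members vary together within a mouse (median correlation 0.584 in striatum with genotype and sex means removed), so the counts of signs and of unadjusted p are not of independent genes. The per-mouse means of the 38 members overlapped, from -0.16 to 0.18 in wild-type and from -0.013 to 0.32 in Msh6-/- striatum. Fa2h in Msh6-/- mice was 0.22 ± 0.057 (adjusted p = 0.144) and Nkx6-2 0.33 ± 0.093 (adjusted p = 0.264). Among mice with Q140, the members' median was -0.091 for Q140 X Msh6+/- and -0.05 for Q140 X Msh6-/- against Q140. No member was called by the 3 tools, and 11 and 3 had an unadjusted p under 0.05 in edgeR (all genes, 0.00571% and 0.177% called, 4.3% and 5.47% at the unadjusted p). In cortex the 4 medians ran from 0.005 to 0.023 with no member called by the 3 tools, and 0, 0, 1 and 3 members had an unadjusted p under 0.05 in edgeR for Msh6+/- and Msh6-/- against wild type and for Q140 X Msh6+/- and Q140 X Msh6-/- against Q140. Of all genes in cortex, 0.00567%, 0.131%, 0.0113% and 0.153% were called in the same order and 3.3%, 3.34%, 7.88% and 6.95% had the unadjusted p.

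Per mouse, the mean of the 38 members on the log2 CPM scale, relative to the wild-type mean of the tissue, gives the spread of the animals. In striatum it was 0 ± 0.11 (SD, n = 8) in wild type and 0.0069 ± 0.15 in Q140. The Q140 mice spread widely, from -0.23 to 0.17, with 4 mice above and 4 below the wild-type mean. It was 0.086 ± 0.14 in Msh6+/- and -0.094 ± 0.085 in Q140 X Msh6+/- mice, and 0.14 ± 0.13 in Msh6-/- and -0.032 ± 0.077 in Q140 X Msh6-/- mice. Ranges with and without Q140 overlapped in each pair. The lowest Q140 X Msh6-/- mouse was 32-4, at -0.19, apart from the other 7. The highest was 21-3, at 0.041, a mean that includes its Enpp2 level of 1366 CPM. The median over the 38 members in that mouse was -0.013. In cortex the 6 group means lay from 0 to 0.029, within the SDs of 0.074 to 0.16.

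**Figure D3:**
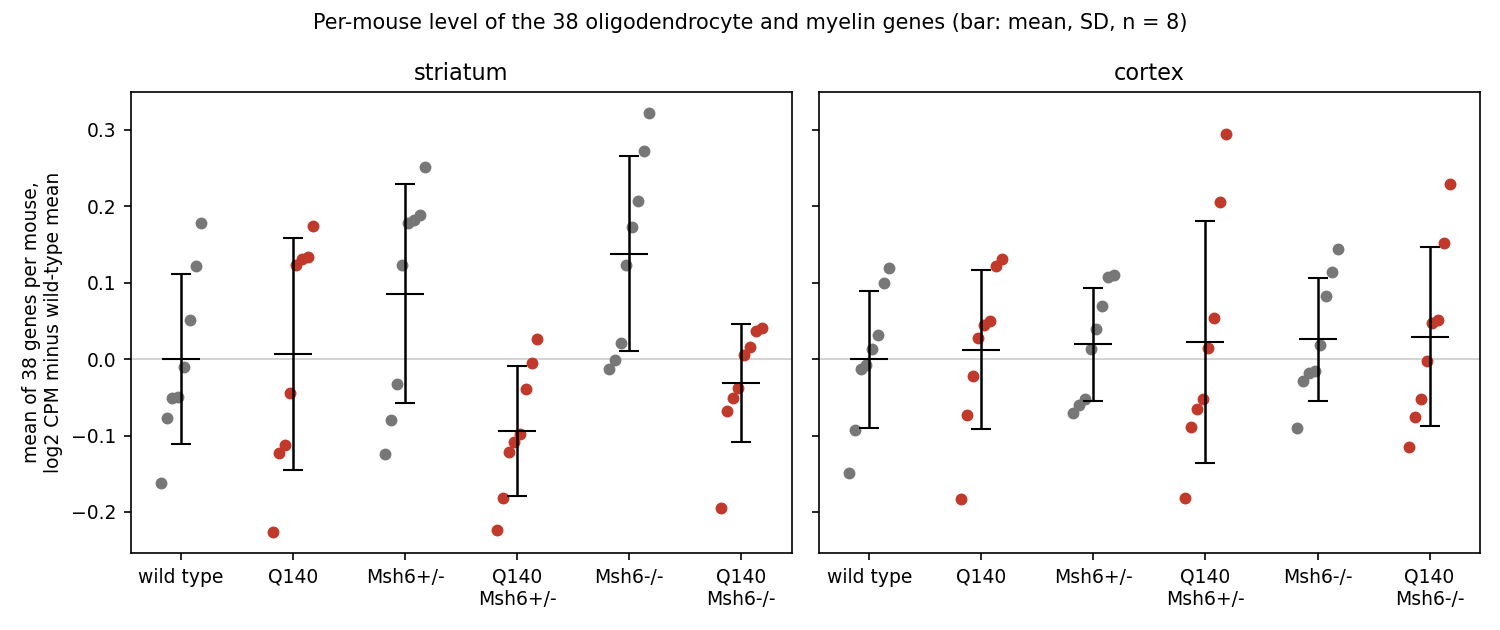
Mean of the 38 genes in each mouse (vertical axis, log2 CPM minus the wild-type mean of the tissue) by genotype, striatum left and cortex right, mice without Q140 in grey and with Q140 in red, sorted by value within a group, bars at the mean and SD of 8. In striatum Msh6-/- mice reach 0.32 and the Q140 X Msh6+/- mice lie between -0.22 and 0.027, and in cortex the 6 groups overlap.

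Other gene lists changed in the same libraries. Of 21 further myelin genes outside the 38, 14 fell and 1 rose in the mean Q140 effect in striatum (median -0.15). Gamt, which makes creatine, fell by 0.27 ± 0.036 (edgeR, adjusted p = 8.22e-09) and Elovl1, which lengthens fatty acids, by 0.21. Of 12 precursor genes 7 fell and 1 rose, among them Cacng4 at -0.44, C1ql1 at -0.29 and Cspg4 at -0.16, while Pdgfra, the receptor that defines precursors, had -0.062 ± 0.027 (adjusted p = 0.0529). In wild type Cacng4 was 3.23 log2 units higher in striatum than in cortex, against 0.18 for C1ql1, 0.19 for Cspg4 and 0.21 for Pdgfra. Which cells the fall of Cacng4 comes from was not tested. Of 8 genes of newly formed oligodendrocytes 1 fell, Itpr2 at -0.15, and none rose. Of other cell types, 9 of 11 astrocyte, 12 of 12 microglia and 10 of 12 striatal projection neuron genes fell, where 23.6% of all genes did. Of fibroblast, meningeal and pericyte genes 3 of 11 fell, a share near that of all genes. The striatal projection neuron genes had a median of -0.70, with Scn4b at -1.24, the astrocyte genes -0.19, with Slc4a4 at -0.34, and the microglia genes -0.18, with Csf1r at -0.20. Summed levels ran from 6168 to 6816 CPM in wild type and from 5405 to 5791 in Q140 for the astrocyte list. For the microglia list they ran from 535 to 602 and from 466 to 524, for the striatal neuron list from 14553 to 16675 and from 8764 to 9219, and for the further myelin genes from 2277 to 2901 and from 1891 to 2615. Of the choroid plexus markers, 4 of 10 were tested in striatum, and in the mean effect 0 fell and 2 rose. That effect includes mouse 21-3, whose summed choroid plexus markers reached 2867 CPM. Of the cortical glutamatergic neuron markers 6 of 8 were tested, and 1 fell and 3 rose (all genes, 23.6% and 29.1% for both lists). The part of these cell types in the members' result was not tested.

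The calls of the members shifted when the rest of the myelin genes entered the fit. With the mean of the 21 further myelin genes in each mouse as a covariate, an alternative chosen after the data were seen and one whose covariate itself moves with Q140, 9 members were lower and 15 higher in the mean Q140 effect in striatum. The lower ones were Aspa, Mal, Car2, Tspan2, Mobp, Ugt8a, Fa2h, Cldn11 and Gjc3. The higher ones were Sirt2, Apod, Plekhb1, Trf, Mag, Anln, Ppp1r14a, Enpp6, Lpar1, Abca8a, Olig1, Gjb1, Tmem88b, Mog and Evi2a. The covariate follows the members' own mean closely (Pearson r = 0.942 in striatum with genotype and sex means removed). Values set relative to it tend to fall on both sides by construction, so this split alone does not show that members differ. The share of all genes called with this covariate is not given here. Cnp, Bcas1, Pllp, Trf, Myrf and Gpr37, which fell without the covariate, had positive values with it, of which that of Trf passed. Without the 3 striatal libraries high in cortical neuron genes, also chosen after seeing the data, 19 members fell and 4 rose in the mean effect, and 15 and 16 fell in Msh6+/- and Msh6-/- mice. The shares of all genes called without these libraries are not given here, so the change in counts is not read as a result about the members. Cnp, Trf and Tmem88b were no longer called in Msh6+/- mice and Pllp, Sox10, Myrf and Gpr37 no longer in Msh6-/- mice, where the call of Gpr37 was also lost without mouse 21-3 alone (edgeR, adjusted p = 0.0596).

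In cortex Q140 changed few members, but few genes changed at all. In the mean effect 4 members fell (Tspan2, Ugt8a, Fa2h and Car2) and 4 rose (Anln, Apod, Enpp6 and Abca8a), against 1.07% and 0.471% of all genes. With intact Msh6 Abca8a rose and 0 members fell by edgeR, with 7 at an unadjusted p under 0.05 in either direction (all genes, 0% fell, 0.017% rose, 6.13% at the unadjusted p). DESeq2 gave an adjusted p for 2 of the 38 members there, Abca8a not among them, and its count of 0 does not bear on that call. In Msh6+/- mice Anln and Abca8a rose and 0 fell by edgeR, with 11 at an unadjusted p under 0.05 and 0 called by limma on the FPKM scale (all genes, 0.119%, 0.0738% and 11.9%). DESeq2 gave an adjusted p for 7 of the 38 there, with neither gene among them. In Msh6-/- mice Tspan2 and Car2 fell and Anln and Abca8a rose (all genes, 0.0908% and 0.0454%); on the FPKM scale with limma 0 fell and 2 rose, and without mouse 21-3 edgeR called 0 fallen and 2 risen. DESeq2 called 5 fallen and 3 risen in the mean effect. The shares of all genes called by DESeq2, by limma and without mouse 21-3 are not given here.

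Anln (chromosome 9, 22332012 to 22389188, minus strand) lay in cortex from 9.92 to 13.3 (median 12.6) CPM in wild type, from 13.4 to 17.2 (median 15.8) in Q140, from 10.2 to 14.2 (median 12.7) in Msh6+/- and from 13.6 to 18.7 (median 15.6) in Q140 X Msh6+/- mice. It lay from 10.6 to 16.5 (median 12.6) CPM in Msh6-/- and from 14.1 to 22.8 (median 17.2) in Q140 X Msh6-/- mice. The wild-type and Q140 ranges of Anln did not overlap, and its mean effect was 0.38 ± 0.051 (adjusted p = 1.35e-06). Abca8a (chromosome 11, 110025634 to 110095978, minus strand) was measured in cortex at 6.296 to 8.62 (median 6.72) CPM in wild type, 7.59 to 11.3 (median 9.57) in Q140, 6.402 to 8.501 (median 7.67) in Msh6+/- and 7.72 to 12.1 (median 9.12) in Q140 X Msh6+/- mice. It was measured at 7.01 to 8.41 (median 7.69) CPM in Msh6-/- and 9.105 to 12.3 (median 11.2) in Q140 X Msh6-/- mice, which did not overlap, and its mean effect was 0.43 ± 0.044 (adjusted p = 1.89e-09). Enpp6 and Apod had cortical mean effects of 0.48 ± 0.078 (adjusted p = 7.88e-05) and 0.22 ± 0.053 (adjusted p = 0.0197). Car2 lay in cortex from 89.6 to 109 (median 101) CPM in wild type, from 83.9 to 99.7 (median 89.9) in Q140, from 94.2 to 115 (median 103) in Msh6-/- and from 82.4 to 94.5 (median 88.5) in Q140 X Msh6-/- mice, and its mean effect was -0.15 ± 0.025 (adjusted p = 0.000131). Ugt8a, Tspan2 and Fa2h had -0.21 ± 0.048, -0.22 ± 0.032 and -0.19 ± 0.047. Mbp, at 804 to 1007 (median 893) CPM in wild type and 755 to 968 (median 853) in Q140, had -0.054 ± 0.039 (adjusted p = 0.578) in cortex.

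The mean Q140 effect was tested for a difference between the tissues in 1 fit over all 96 libraries. It was lower in striatum for 10 members (Mbp, Mobp, Mal, Cldn11, Anln, Ugt8a, Fa2h, Car2, Abca8a and Hapln2) and higher for Sirt2, against 16.2% and 21.4% of all genes. The members' median was -0.11 and that of all genes 0.016. Since both tissues come from the same mice, a fit with each animal as a block was also made, in which 16 members were lower, adding Cnp, Bcas1, Aspa, Trf, Gjc3 and Mog, and 1 higher. DESeq2 and edgeR with its relative log scaling each gave 14 lower and 0 higher. The shares of all genes called in these alternative fits are not given here, so their counts are not read as a result about the members. For Abca8a the difference was -0.35 ± 0.058 (adjusted p = 6e-07) and for Anln -0.24 ± 0.073 (adjusted p = 0.00468); both rose in cortex, and Abca8a did not pass in striatum. For Car2 it was -0.29 ± 0.043 (adjusted p = 1.97e-08), for Mobp -0.22 ± 0.062 (adjusted p = 0.00247) and for Hapln2 -0.23 ± 0.071 (adjusted p = 0.00693). The mean effects were called in the same direction in both tissues for 7 members (Tspan2, Ugt8a, Fa2h and Car2 lower, Anln, Apod and Enpp6 higher) and in opposite directions for 0. The shares of all genes called in both tissues are not given here, so these counts too are not read as such a result.

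**Figure D4:**
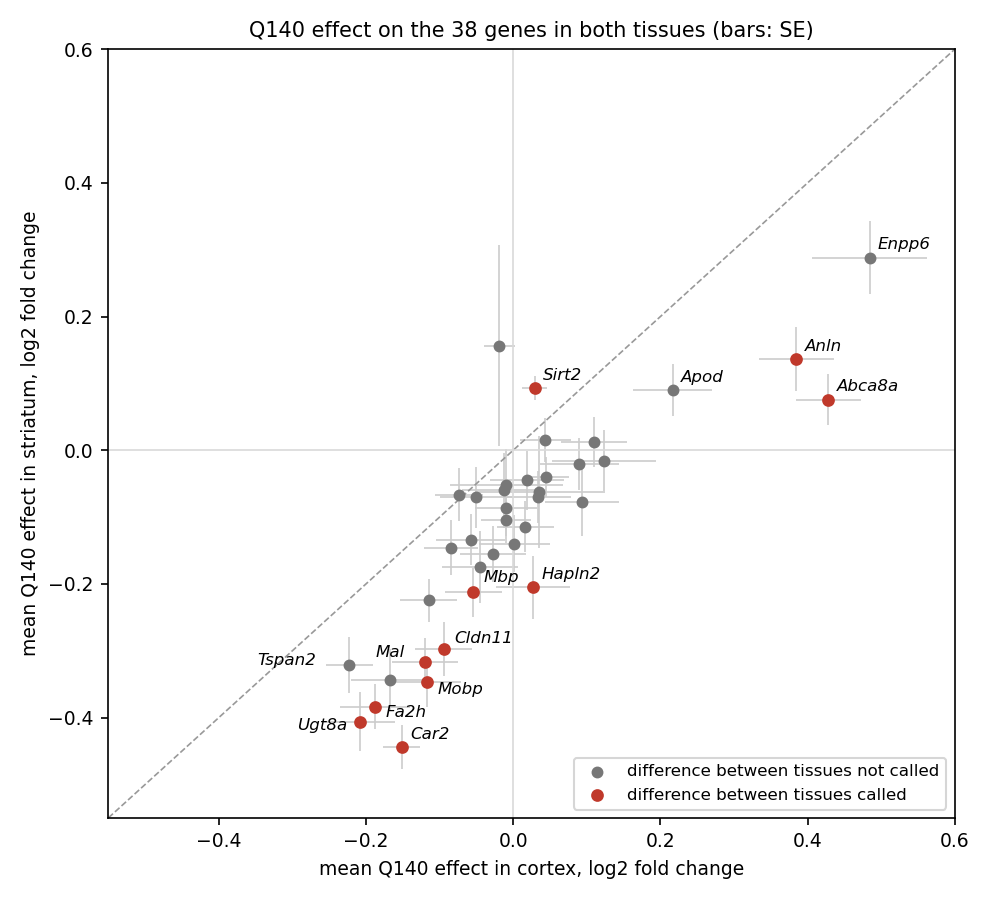
Mean Q140 effect (log2 fold change) in cortex (horizontal axis) and striatum (vertical axis) of the 38 genes, bars at 1 SE, dashed line at equal effects, red where the difference between tissues passed an adjusted p under 0.05. Most points lie below the line, as 35 of the 38 differences are negative; Car2 is lowest in striatum and Enpp6 highest in both tissues.

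A few members differed between the sexes. In striatum Opalin, Pllp and Cnp were lower in females (3 of 38, 7.89%, with 5.54% of all genes called in either direction). In cortex Opalin and Tspan2 were lower and Bcas1 and Enpp2 higher (4 of 38, 10.5%, with 6.31% of all genes). On the FPKM scale with limma 5 were called in striatum, all lower, and in cortex 2 were lower and 1 higher, with the shares of all genes not given here. Opalin (chromosome 19, 41061710 to 41077113, minus strand), a sialoglycoprotein of oligodendrocyte membrane, lay in striatum from 11.2 to 25.2 (median 16.6) CPM in 24 females and from 14.9 to 29.3 (median 20.995) in 24 males. In cortex it lay from 4.32 to 11.3 (median 6.81) and from 5.81 to 11.2 (median 8.37). The sexes overlapped in both tissues, and the log2 difference was -0.32 ± 0.083 (adjusted p = 0.0139) in striatum and -0.32 ± 0.087 (adjusted p = 0.0195) in cortex.

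The members varied between mice more than the median gene did, and they varied together. The biological coefficient of variation, the spread between mice beyond counting error, had a median of 0.0964 over the members in striatum and 0.101 in cortex, against 0.0676 and 0.0647 over all genes. Opalin was the most variable in cortex, at 0.195, and in striatum, at 0.195, was exceeded by Enpp2, at 0.351, whose spread includes mouse 21-3, and Sirt2 was the least variable, at 0.0417 and 0.0377. With genotype and sex means removed, the median correlation between 2 members across the 48 mice was 0.584 in striatum and 0.425 in cortex, where pairs of other genes had -0.00122 and -0.00135. These correlations are a description, and the members of a mouse share a library and a dissection. With the same removal, the per-mouse mean of the members correlated with that of the further myelin genes (Pearson r = 0.942, Spearman rho = 0.939 in striatum), with the astrocyte genes (r = 0.581) and, negatively, with the striatal projection neuron genes (r = -0.512).

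The level in 1 tissue of a mouse went with that in the other to a different degree for different members. Across the 48 mice, after the same removal, the correlation between striatum and cortex was positive for 36 of 38 members, with a median of 0.333 and a range from -0.11 (Abca8a) to 0.78 (Opalin); over all genes the median was 0.162. Opalin kept r = 0.75 without the 2 mice farthest from the median (Spearman rho = 0.78 over all). Mog had r = 0.56, Mbp 0.26 and Myrf 0.025. For the mean of the 38 members the correlation was 0.24 (Spearman rho = 0.26).

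**Figure D5:**
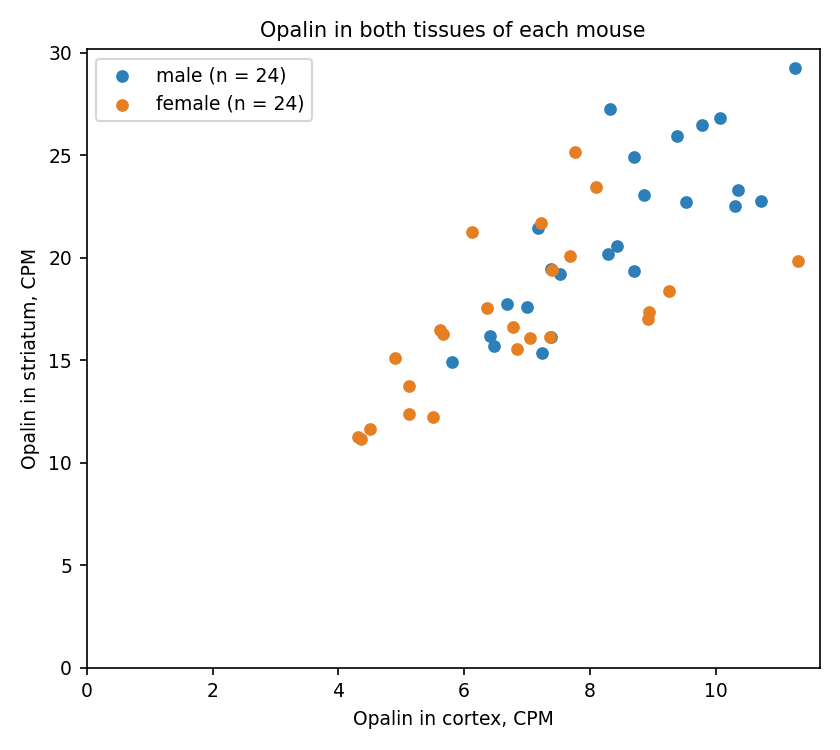
Opalin level (CPM) in cortex (horizontal axis) and striatum (vertical axis) of the same mouse, 24 males in blue and 24 females in orange. Mice high in one tissue are high in the other, and males lie toward the upper right.

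For 12 members (Mobp, Pllp, Tspan2, Evi2a, Cnp, Ermn, Sirt2, Bcas1, Trf, Enpp2, Olig1 and Nkx6-2) annotated exons overlap those of another gene, in 9 of them on the other strand. The library kit keeps strand, but how the counting used strand is not given in the sources used here; reads of these genes and their neighbours may not be told apart and their values are uncertain to that extent. Among them are the falls of Mobp, Tspan2 and Cnp and the rise of Sirt2.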

How the data were processed

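RNA from striatum and cortex of 48 mice was sequenced in 96 libraries (Qiagen RNeasy extraction and an Illumina TruSeq stranded kit, per the labels' protocols). The authors deposited whole-number read counts per gene and FPKM values per gene. The submitters' processing notes name STAR 2.7.5c, SAMtools 1.10, HTSeq 0.12.3 and build GRCm38/mm10; the sources used here do not state the annotation release or the strand setting of the counting. FPKM divides by gene length and library total, per the values the authors deposited, so it shifts with a few abundant genes.

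Samples were grouped by the labels' genotype and tissue. Each tissue was fitted on its 48 libraries with edgeR 4.0.16 in R 4.3.3: TMM scaling, filterByExpr (minimum count 10, total 15), 6 genotypes plus sex, quasi-likelihood F-test, Benjamini-Hochberg adjustment over all genes tested, threshold 0.05. Tissue comparisons used 1 fit of 96 libraries. The SE of a log2 fold change is its size divided by the square root of F. CPM values use the TMM-scaled library sizes. The fit was tested on simulated counts with known fold changes. Alternatives were DESeq2 1.42.0, relative log scaling, no count filter, no sex term, the number before the hyphen of the animal number as a covariate, limma 3.58.1 on log2(FPKM + 0.1) or log2(FPKM + 1) with a minimum mean FPKM of 0.1 or no such filter, only the 2 groups compared, and the animal as a block. The same animal number in both tissues is the same mouse; same-animal residuals had a median correlation of 0.145 over all genes (39 of 48 mice matched themselves best), against -0.00382 between animals.

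All 38 genes are named and counted. By rule, full values are given for 8 fixed genes, up to 2 per role with the smallest p in the mean striatal effect and 2 per striatal interaction. The values by genotype of Enpp6 in striatum and of Anln and Abca8a in cortex, and those of Opalin by sex, are given outside this rule. The values of 1 gene outside the 38 are not reported here. The members and all gene lists were chosen with earlier results of these data known. P-values measure the spread between mice within genotypes; the depth of each library limits the precision of genes with low counts.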

Additional observations from a re-analysis of the deposited data

Results flagged for a closer look

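In groups of 8 mice, 1 mouse stood apart when its gap to the nearest other mouse exceeded Dixon's 95% limit as a share of the group's range. This held in 8 of 252 groups tested (3.17%), and chance flags about 1 in 20. In the striatum of Q140 X Msh6-/- mice, mouse 32-4 was lowest in the mean of the 38 members at -0.19 log2 units, against -0.068 to 0.041 in the other 7, in Mog at 40.1 CPM, against 53.8 to 63.8 in the other 7, and in Cnp at 252 CPM, against 311 to 330.5 in the other 7. In the same group mouse 21-3 was highest in Enpp2, at 1366 CPM, against 149 to 189 in the other 7. In Q140 X Msh6+/- striatum mouse 17-1 was lowest in Mobp, at 703 CPM, against 814 to 902 in the other 7. In cortex, Q140 mouse 24-1 was highest in Gjb1, at 7.17 CPM, against 4.76 to 5.48 in the other 7, Msh6-/- mouse 26-2 in Hapln2, at 17.5 CPM, against 10.99 to 12.8 in the other 7, and Q140 X Msh6-/- mouse 38-1 in Ugt8a, at 26.1 CPM, against 16.1 to 20.3 in the other 7.

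The mean Q140 effect differed between striatum and cortex, tested as an interaction in edgeR with an adjusted p under 0.05, for 11 members. Striatum minus cortex was -0.23 for Hapln2, 0.069 for Sirt2, -0.19 for Mal, -0.29 for Car2, -0.22 for Mobp, -0.19 for Ugt8a, -0.19 for Fa2h, -0.24 for Anln, -0.20 for Cldn11, -0.15 for Mbp and -0.35 for Abca8a on the log2 scale.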

How the results depend on the processing

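Results kept their direction and side of the threshold under most alternatives. Of single genes' values 158 lost their call and 20 changed sign over all alternatives, most on the FPKM scale or with the myelin covariate. With relative log scaling, no count filter and DESeq2 the members called higher went from 3 to 2 in Msh6+/+ striatum (Nkx6-2 lost) and from 4 to 3 in the mean effect (Apod lost). Larger shifts of counts were these, given without the shares of all genes called under the same settings. On log2(FPKM + 0.1) and log2(FPKM + 1) with limma, the members called lower and higher in striatum were 2 and 7 in Msh6+/+, 10 and 1 in Msh6+/- and 11 and 2 in Msh6-/- mice, with 11 lower in the mean effect and 5 called between the sexes. Without the FPKM filter they were 1 and 6, 10 and 1, 10 lower and 11 lower in the same order. In cortex the FPKM settings called 0 higher in Msh6+/- and 0 lower in Msh6-/- mice, and without the filter 2 lower in the mean effect. The cause of these shifts was not tested. Members called higher in Msh6-/- striatum came to 1 without the count filter, with DESeq2, with the animal number prefix as a covariate, with only the 2 groups, without mouse 21-3 and without the 3 libraries high in cortical neuron genes. The gene that lost its call was not the same throughout. It was Enpp6 without the count filter and with the animal number prefix. Enpp2 was no longer higher without mouse 21-3, at -0.15, and without the 3 libraries, at -0.14. In cortex the fit of only 2 groups called 0 higher in Msh6+/+ and 0 in Msh6+/- mice; DESeq2 also called 0, but gave an adjusted p for only 2 and 7 of the 38 members; the fit without sex called 0 higher in Msh6+/- and 1 lower in Msh6-/- mice, the fit of only 2 groups called 1 higher in Msh6-/- mice, and without mouse 21-3 0 were lower in Msh6-/- mice. For the tissue difference of the Q140 effect, relative log scaling, no count filter and DESeq2 called 0 higher. With the animal as a replicate block 16 were lower in that difference and 1 (Enpp2) lower in wild-type striatum than in cortex; the block changed no other count of members called.

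With the other myelin genes as a covariate, chosen after seeing the data, 10 members were higher in Msh6+/+ striatum, 7 lower and 13 higher in Msh6+/-, 5 lower and 15 higher in Msh6-/-, and 9 lower and 15 higher in the mean effect. In cortex it called 1 lower in Msh6+/+, 2 lower and 0 higher in Msh6+/- and 10 lower in the mean effect. The covariate itself moves with Q140 and follows the members, so these counts alone do not show that members differ. Values that turned positive were 0.068 for Cnp, 0.037 for Pllp, 0.073 for Trf, 0.029 for Gpr37 and 0.079 for Tmem88b in Msh6+/- striatum; 0.069 for Cnp, 0.0037 for Bcas1, 0.082 for Pllp, 0.11 for Trf, 0.075 for Myrf, 0.11 for Mag and 0.065 for Gpr37 in Msh6-/- striatum; and 0.066 for Cnp, 0.058 for Pllp, 0.072 for Trf, 0.054 for Myrf and 0.029 for Gpr37, with 0.00996 for Bcas1 in the mean effect.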
